A study of Mus musculus with 4 samples.

Results

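The 36 genes described here encode the 20 cytosolic aminoacyl-tRNA synthetase chains, 8 enzymes that make asparagine, serine, single-carbon units and proline, and 8 factors and effectors of the ATF4 stress response. They were chosen by name as known members of these families, and all 36 were found among the 25965 genes measured. RNA was sequenced from 4 libraries of vascular smooth muscle cells, which contract the wall of arteries. They were grown from the aortic media of wild type C57Bl/6 male mice, aged 8 to 14 weeks and healthy, in medium with serum for 3 to 5 passages. All 4 libraries belong to 1 group with no treatment, so levels, differences between genes of a library and the spread between libraries are what the data hold. The labels do not say whether a library pools animals or whether the libraries are separate cultures, so every spread and p below measures these samples and may be technical in part.

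An aminoacyl-tRNA synthetase joins an amino acid to its tRNA, and the cytosolic set supplies the ribosomes outside mitochondria. When amino acids run short or unfolded proteins build up in the endoplasmic reticulum, kinases phosphorylate the translation factor eIF2, most translation slows, and the mRNA of the transcription factor ATF4 is translated more. ATF4, as a dimer with C/EBP-type partners, then activates genes for synthetases, amino acid synthesis and transport, and for stress effectors such as CHOP and TRIB3. Because ATF4 is controlled largely at translation, its mRNA level is not a measure of its activity. Smooth muscle cells in culture secrete collagen, a protein rich in glycine and proline.

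The libraries held 40342561 to 56793195 reads on genes, recovered from the table as described under processing. Library 3 had the fewest reads and the largest share on mitochondrial genes (0.382%, against 0.0653% to 0.133% in the others). Levels are log2 scaled read counts as deposited, and a gene is called detected with a value of at least 0 in 4 of 4 libraries, which took 22 to 30 reads. The smooth muscle markers Acta2, Tagln, Cnn1, Myh11 and Tpm2 were detected (5 of 5, summed log2 level 13.07 to 14.79). Each of them was lower in libraries 1 and 2 than in libraries 3 and 4 (Myh11 7.12, 5.33, 8.08 and 9.24). Endothelial markers had 3 of 4 genes detected (3.92 to 5.42), leukocyte markers 1 of 4 (1.31 to 5.11), fibroblast markers 3 of 3 (5.16 to 8.24), and adipocyte, Schwann cell and erythroid markers none of 3 each, with Plin1 and Hba-a1 at 0 reads in every library. In such bulk RNA, fewer cells of a type and less RNA per cell cannot be told apart.

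All 36 genes were detected, against 47.4% of all genes. Their median was 7.61, 7.60, 7.25 and 7.47 in libraries 1 to 4 (mean 7.48 ± 0.17, SD, n = 4), and the median of all detected genes was 5.49, 5.22, 4.78 and 4.95. Single genes ran from 3.48 (Chac1) to 10.37 (Atf5), and 34 of the 36 lay above the middle of the detected genes. The exceptions were Chac1 and Pycr1. Divided by exon length, the level of the 36 genes had a median of 5.45 ± 0.26 per kilobase (log2, n = 4), against 2.97 ± 0.29 for all detected genes. The least read gene, Chac1, still had 282 to 351 reads per library, where counting error alone gives an SD of 0.09 on the log2 scale. Counting error is smaller for each of the others.

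**Figure D1:**
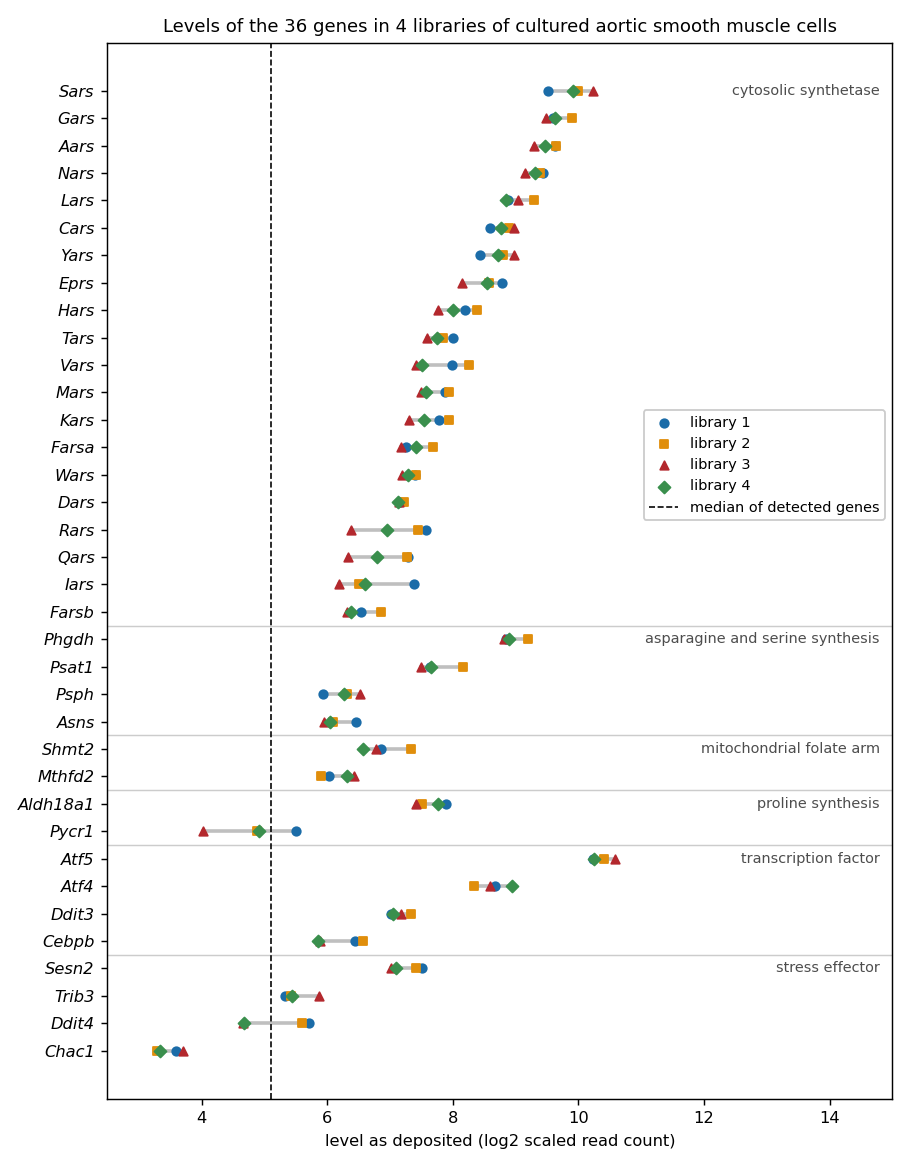
Level of each of the 36 genes (horizontal axis, log2 scaled read count as deposited) in libraries 1 to 4 (symbols), grouped by role and ordered by mean. Grey bars join the lowest and highest library, and the dashed line marks 5.11, the median of all detected genes averaged over libraries. Chac1 lies at 3.29 to 3.70, and Pycr1 spans 4.02 to 5.50.

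ATF4 with its partners binds a composite site, the C/EBP-ATF response element, whose core is written TGATGNAA. The promoter windows of RefSeq (GRCm38.p6, 250 bases before to 50 after the start of a gene) were searched for these letters on both strands. A window was matched for 29 of the 36 genes, and 9 of them held the motif (31.0%). Among all genes with a window 4.51% held it, and among detected genes 2.69%. With the narrower letters TGATGCAA the count was 6 of 29, against 1.03% of all genes and 0.756% of detected genes. The endoplasmic reticulum stress element bound by ATF6, searched as CCAAT and CCACG with any 9 bases between them on either strand, was in 0 of 29 windows, 0.137% of all and 0.174% of detected genes. A match describes letters only, and the genes were chosen in part as known ATF4 targets, so their higher share is no independent result.

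The matches were in 5 of 13 synthetase windows (Aars, Gars, Iars, Tars and Yars) and 4 of 16 others (Asns, Pycr1, Trib3 and Chac1). They are printed to show the letters around the motif, which the other 20 of 29 windows lacked. The match nearest the start is given for each gene. Each is read 5′ to 3′ on the strand that carries the motif, which is in capitals, with 11 bases on either side.
Asns, chr6:7693214-7693243, minus strand: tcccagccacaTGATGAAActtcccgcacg
Gars, chr6:55037960-55037989, minus strand: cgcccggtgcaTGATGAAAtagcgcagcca
Aars, chr8:111033840-111033869, minus strand: tcagagcgctcTGATGAAAagtgacccgct
Iars, chr13:49682126-49682155, minus strand: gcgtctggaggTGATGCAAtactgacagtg
Tars, chr15:11399655-11399684, plus strand: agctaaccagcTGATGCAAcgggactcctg
Yars, chr4:129189895-129189924, plus strand: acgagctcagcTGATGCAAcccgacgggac
Pycr1, chr11:120643833-120643862, minus strand: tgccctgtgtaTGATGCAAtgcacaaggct
Trib3, chr2:152344028-152344057, plus strand: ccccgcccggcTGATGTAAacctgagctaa
Chac1, chr2:119351038-119351067, minus strand: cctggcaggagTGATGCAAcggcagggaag
The Asns match is the nutrient-sensing element long studied in the human asparagine synthetase promoter. In Asns, Gars and Tars it began 23, 30 and 15 bases before the start. In Yars, Iars, Aars and Trib3 it began at bases 4, 8, 10 and 15 after it. The start meant here is that of RefSeq, which can differ from the start in the deposited table. The deposited starts of Aars (111033144) and Yars (129189760) lie further before their matches. In 2 genes, both on the minus strand, the match changes side. Read along the gene, the deposited start of Asns (7693254) lies before its match, and that of Trib3 (152344032) after it. The level of the 9 genes ran from 3.48 to 9.65 with a median of 6.67, and that of the 20 genes whose window lacked the motif from 5.16 to 10.37 with a median of 7.32. The 2 ranges overlap over most of their length.

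**Figure D2:**
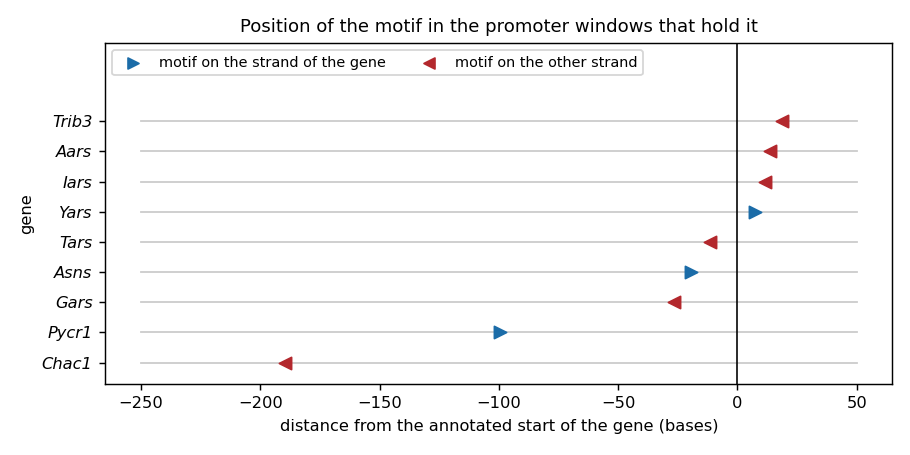
Position of the motif TGATGNAA nearest the start (triangles) relative to the start of the gene annotated by RefSeq (horizontal axis, bases) in the 9 promoter windows that hold it. Right-pointing triangles mark the strand of the gene (Asns, Yars and Pycr1), left-pointing ones the other strand. Matches lie from 193 bases before the start (Chac1) to within 22 bases after it (Trib3).

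Every cytosolic synthetase gene was well expressed, and their levels spanned a 14.0-fold range per kilobase. Sars (seryl-tRNA synthetase) had the most reads, at 9.52, 9.99, 10.24 and 9.92 in libraries 1 to 4 (9.92 ± 0.30). Gars, the glycyl enzyme, which in mammals serves both cytosol and mitochondria, read 9.59, 9.90, 9.49 and 9.63 (9.65 ± 0.18). Aars, the alanyl enzyme, read 9.62, 9.65, 9.30 and 9.47 (9.51 ± 0.16), and Nars, the asparaginyl enzyme, 9.44, 9.39, 9.15 and 9.31 (9.32 ± 0.13). In Sars library 1 was lowest and library 3 highest, whereas in Aars, Gars and Nars library 3 was lowest as deposited. After median-ratio scaling of the libraries, library 1 was lowest in all 4 of these genes, and library 3 highest in Sars, Aars and Nars. For Sars this had to be so, since the scaling lowers library 1 most and raises library 3 most.

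Per kilobase of exon the order began with Gars (8.01), Sars (7.56), Nars (7.20) and Hars (6.80). It ended with Eprs (4.34), Iars (4.27) and Qars (4.20). Eprs, which encodes the fused glutamyl and prolyl enzyme, has annotated exons of 18102 bases in all against a longest transcript of 5638, and by the latter it stood at 6.02, rank 12 of 20 in place of 18. Gars, Sars and Nars held ranks 1 to 3 under both lengths. About 13.5% of the 50-base words in the annotated Aars transcripts also occur in those of its neighbour Exosc6, so reads there could be assigned to either.

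Grouped by structure, the 9 purely class I synthetases, whose catalytic domain is a Rossmann fold, had a median of 5.63 ± 0.21 per kilobase, and the 10 class II genes 5.89 ± 0.22. Eprs carries a domain of each class and was left out. The 8 synthetases of the multi-synthetase complex had a median of 5.18 ± 0.25 per kilobase, and the 12 outside it 6.08 ± 0.15. The 13 synthetases known as ATF4-dependent stood at 6.05 ± 0.13, and the 7 others at 5.22 ± 0.22. These lists overlap and were chosen with earlier results of these data known, and their medians describe the chosen genes without a test. Of the complex's scaffold genes, Aimp1, Aimp2 and Eef1e1 were detected (3 of 3), with levels as deposited of 6.96 ± 0.45, 5.59 ± 0.25 and 2.02 ± 0.71.

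Phenylalanyl-tRNA synthetase is built from alpha and beta subunits encoded by Farsa and Farsb. Farsa read 7.26, 7.69, 7.17 and 7.42, and Farsb 6.54, 6.85, 6.32 and 6.37. Per kilobase their difference was 0.07 ± 0.13 (higher for Farsa in 3 of 4 libraries, exact two-sided sign-flip permutation p = 0.50, adjusted p = 0.50 over 32 gene pairs). Per kilobase of exon the subunit genes thus differed by less than the spread between libraries. By longest transcript the difference was 0.15, and without division by length 0.87, both above that spread.

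Mitochondria use their own synthetases, and all 17 of their genes were detected, with a median of 2.59 ± 0.10 per kilobase against 5.56 ± 0.24 for the cytosolic genes. In 16 of 17 pairs the cytosolic gene was higher in 4 of 4 libraries. The largest gap was between Nars (7.32, 7.27, 7.03 and 7.18 per kilobase) and Nars2 (-0.28, -0.80, -1.15 and -0.39), a difference of 7.86 ± 0.31. Mars exceeded Mars2 by 7.04 ± 0.66, and Sars exceeded Sars2 by 4.24 ± 0.13. The smallest difference among the 16 was that of Iars and Iars2, at 1.14 ± 0.31 or 2.21-fold. Without division by length it was 0.39, and Iars2 (6.52) then lay level with Iars (6.51) in library 2. With 4 libraries 0.125 is the smallest p the exact sign-flip permutation test can give, so each of these pairs had p = 0.125 (adjusted p = 0.133) and none can pass 0.05.

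The reverse order was seen in the leucyl pair. Lars, the cytosolic gene, read 6.45, 6.86, 6.61 and 6.43 per kilobase, and Lars2 7.16, 8.53, 10.03 and 7.95. Lars2 was thus higher in every library, by 3.55-fold on average (log2 difference of Lars minus Lars2 -1.83 ± 1.14, exact p = 0.125). By the longest transcript, 3894 bases for Lars2 against 11089 of exons in all, the difference was -2.91. Lars varied little, and Lars2 had the larger spread (SD 1.21, against 0.20). Lars2 was highest in library 3 and lowest in library 1, the libraries with the largest and smallest share of mitochondrial reads. The part of those reads in the Lars2 value was not tested.

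**Figure D3:**
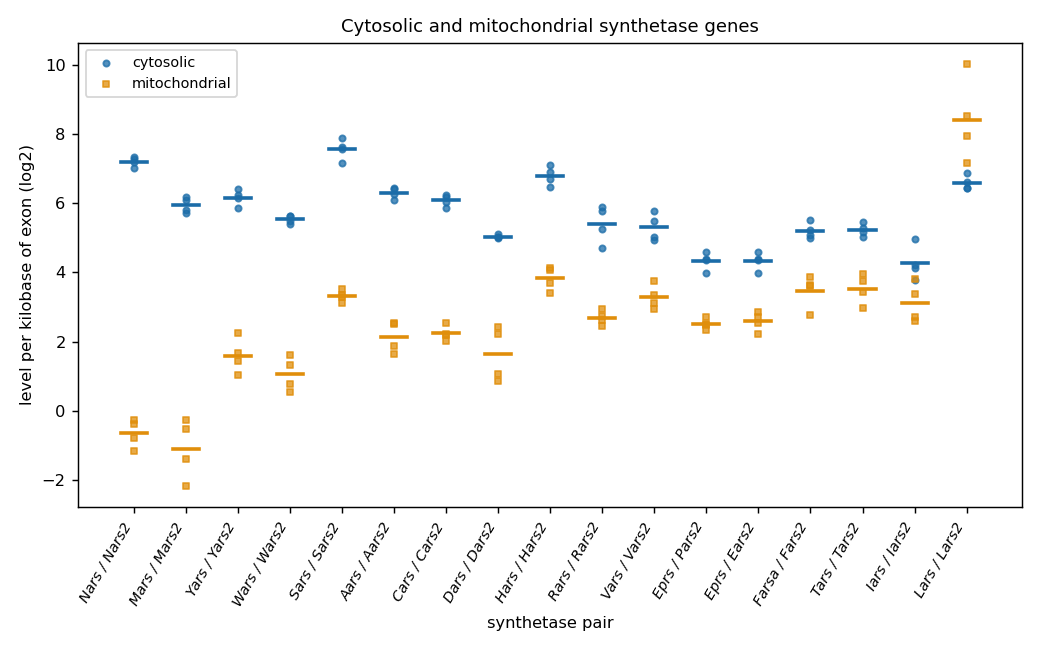
Level per kilobase of exon (vertical axis, log2) of cytosolic (circles) and mitochondrial (squares) synthetase genes in 4 libraries, with the mean as a line, for 17 pairs ordered by their difference. Eprs appears with both Ears2 and Pars2. Lars and Lars2 form the pair in which the mitochondrial gene is higher.

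Serine is made from a glycolytic intermediate by Phgdh, Psat1 and Psph in turn. Phgdh, the first enzyme, read 8.85, 9.19, 8.82 and 8.90 (8.94 ± 0.17), with library 2 highest. Psat1, the transaminase, read 7.64, 8.16, 7.49 and 7.65 (7.74 ± 0.29), also highest in library 2. Psph, the final phosphatase, read 5.93, 6.32, 6.52 and 6.26 (6.26 ± 0.25), with library 3 highest. Per kilobase the genes stepped down along the pathway in 4 of 4 libraries: Phgdh exceeded Psat1 by 1.98 ± 0.12 and Psat1 exceeded Psph by 1.50 ± 0.39 (exact permutation p = 0.125 each, adjusted p = 0.133). Phgdh has many processed copies in the annotation, of which Gm7901 holds 38.3% of its 50-base words, so reads of Phgdh and its copies may have been divided.

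Asns, which makes asparagine from aspartate and glutamine, was lower, at 6.46, 6.09, 5.95 and 6.04 (6.13 ± 0.22, or 4.68 per kilobase). As deposited library 1 was highest, as in 53.6% of detected genes, and the other libraries lay close together. After median-ratio scaling library 3 was highest. Nars, the synthetase that uses asparagine, stood at 7.20 per kilobase.

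In mitochondria Shmt2 splits serine into glycine and a folate-bound carbon unit, which Mthfd2 oxidizes further. Shmt2 read 6.86, 7.34, 6.78 and 6.56 (6.88 ± 0.33) and exceeded its cytosolic counterpart Shmt1 16.03-fold per kilobase (4.00 ± 0.82 log2, 4 of 4 libraries, exact p = 0.125). Mthfd2 read 6.04, 5.91, 6.43 and 6.32 (6.17 ± 0.24) and exceeded Mthfd2l, a related mitochondrial enzyme, by 5.88 ± 0.77 per kilobase in 4 of 4 libraries. Against Mthfd1, the cytosolic trifunctional enzyme, Mthfd2 did not differ beyond the spread (-0.29 ± 0.82, exact p = 0.375, adjusted p = 0.387), being higher in library 3 and lower in the rest. By longest transcript that difference was 0.0015, so its sign depends on the length used.

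Proline is made from glutamate by Aldh18a1 and then by the mitochondrial reductase Pycr1. Aldh18a1 read 7.89, 7.52, 7.42 and 7.76 (7.65 ± 0.22). Pycr1 read 5.50, 4.89, 4.02 and 4.91 (4.83 ± 0.61), which as deposited was the widest spread of the 36 genes (0.38 after median-ratio scaling, where Sars was widest at 0.54), a 2.79-fold range from library 3 to library 1. Aldh18a1 exceeded Pycr1 by 2.77 ± 0.43 per kilobase in 4 of 4 libraries (exact permutation p = 0.125, adjusted p = 0.133).

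Of the transcription factor genes, Atf5 was the highest of all 36, at 10.23, 10.41, 10.58 and 10.25 (10.37 ± 0.16), above 98.4% of detected genes. It encodes a relative of ATF4 that is likewise controlled at translation. Atf4 read 8.67, 8.34, 8.59 and 8.95 (8.64 ± 0.25), with library 4 highest and library 2 lowest. Per kilobase Atf5 exceeded Atf4 3.94-fold (Atf4 minus Atf5 -1.98 ± 0.36, 4 of 4 libraries, exact p = 0.125). The deposited positions of Atf5 and Nup62 (level 7.12) overlap by 571 bases on opposite strands, and those of Atf5 and Il4i1 (4.90) by 289, so reads there could be assigned to either if strand was not used.

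Ddit3, which encodes the stress factor CHOP, read 7.02, 7.34, 7.18 and 7.04 (7.14 ± 0.15), below Atf4 by 1.03 ± 0.38 per kilobase in 4 of 4 libraries. Ddit3 and Mars lie tail to tail, and their deposited positions share 68 bases. Cebpb, a partner of ATF4, read 6.44, 6.58, 5.89 and 5.85 (6.19 ± 0.37), with libraries 1 and 2 above libraries 3 and 4 as deposited. After median-ratio scaling library 3 lay above library 1, so this split was lost. Cebpb exceeded Cebpg, another partner, by 3.63 ± 0.35 per kilobase. Tmem189 overlaps Cebpb by 908 bases on the other strand and read 7.10, 6.96, 6.40 and 6.42 (6.72 ± 0.36), the same split of libraries as deposited. About 18.1% of the 50-base words of Cebpb occur in Tmem189 on the opposite strand. The fibroblast markers Pdgfra, Dpt and Pi16 were also higher in libraries 1 and 2, and the smooth muscle markers lower. The part of Tmem189 or of these markers in the Cebpb value was not tested.

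The stress effectors were lower, with a median of 5.34 ± 0.22. Sesn2, a leucine-sensing inhibitor of mTORC1 signalling, read 7.50, 7.42, 7.02 and 7.09 (7.26 ± 0.24) and exceeded its paralog Sesn1 13.7-fold per kilobase (3.77 ± 0.72). Trib3, a pseudokinase gene that CHOP and ATF4 induce, read 5.34, 5.42, 5.87 and 5.44 (5.51 ± 0.24), with library 3 highest. It lay above Trib1 per kilobase (1.18 ± 0.42, 4 of 4 libraries) and below it when reads were not divided by length (-0.38).

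Ddit4, which encodes REDD1, another inhibitor of mTORC1, read 5.71, 5.61, 4.66 and 4.67 (5.16 ± 0.58). Libraries 1 and 2 lay above libraries 3 and 4 without overlap. The 3 fibroblast markers Pdgfra, Dpt and Pi16 were also higher in libraries 1 and 2 (Dpt 7.15, 7.02, 2.32 and 1.92). The smooth muscle markers were lower there. The part of either set of markers in the Ddit4 value was not tested. Its paralog Ddit4l was higher than Ddit4 in 4 of 4 libraries (Ddit4 minus Ddit4l -1.31 ± 0.56 per kilobase). Chac1, which encodes an enzyme that degrades glutathione, was the lowest of the 36 at 3.59, 3.29, 3.70 and 3.34 (3.48 ± 0.20) and exceeded Chac2 by 1.15 ± 0.84 per kilobase. In all, 30 of the 32 gene pairs had 1 sign in 4 of 4 libraries, each with exact p = 0.125.

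As deposited, the 36 genes varied little between libraries. An SD above 0.5 was taken as variable, and this held for 4 of the 36 genes (11.1%), Pycr1 (0.61), Ddit4 (0.58), Rars (0.54) and Iars (0.50), against 40.5% of all detected genes. High genes vary less in general, and among the 9081 detected genes with a mean in the range of the 36 the share was 33.4%. The median SD of the 36 genes was 0.24, against 0.43 over all detected genes and 0.39 over those in the same range, and 31 of 36 lay below the former. Without library 3 the count was 1 of 36 (Ddit4, against 34.6% of detected genes), and without libraries 1, 2 or 4 it was 3, 4 or 5 (against 27.2%, 43.8% and 46.0%).

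Some genes hardly differed between libraries. Dars, the aspartyl enzyme, read 7.15, 7.22, 7.14 and 7.12, an SD of 0.04 that is close to its counting error of 0.03. Wars, the tryptophanyl enzyme, had an SD of 0.10, and Nars 0.13. At the other end Rars, the arginyl enzyme, read 7.58, 7.45, 6.38 and 6.95, and Qars, the glutaminyl enzyme, 7.28, 7.28, 6.33 and 6.80. Library 3 was lowest in both, as in 52.9% of detected genes. Both proteins belong to the multi-synthetase complex with the scaffold protein of Aimp1, which read 7.34, 7.27, 6.35 and 6.89. Dars and Lars, also of the complex, were lowest in library 4, and the scaffold gene Aimp2 read 5.43, 5.95, 5.40 and 5.57. Iars, the isoleucyl enzyme, read 7.38, 6.51, 6.19 and 6.61, with library 1 highest.

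The size of the spread depends in part on the scaling. Median-ratio size factors, which centre the detected genes, were 0.32, 0.11, -0.28 and -0.10 on the log2 scale in libraries 1 to 4 and were subtracted, which lowers libraries 1 and 2 and raises libraries 3 and 4. After this correction the median SD was 0.28 for the 36 genes, 0.37 over all detected genes and 0.32 in the same range of means. Under it 1 of the 36 was variable (2.78%), Sars at 0.54, against 30.7% of detected genes, and the SD of Dars was 0.25.

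**Figure D4:**
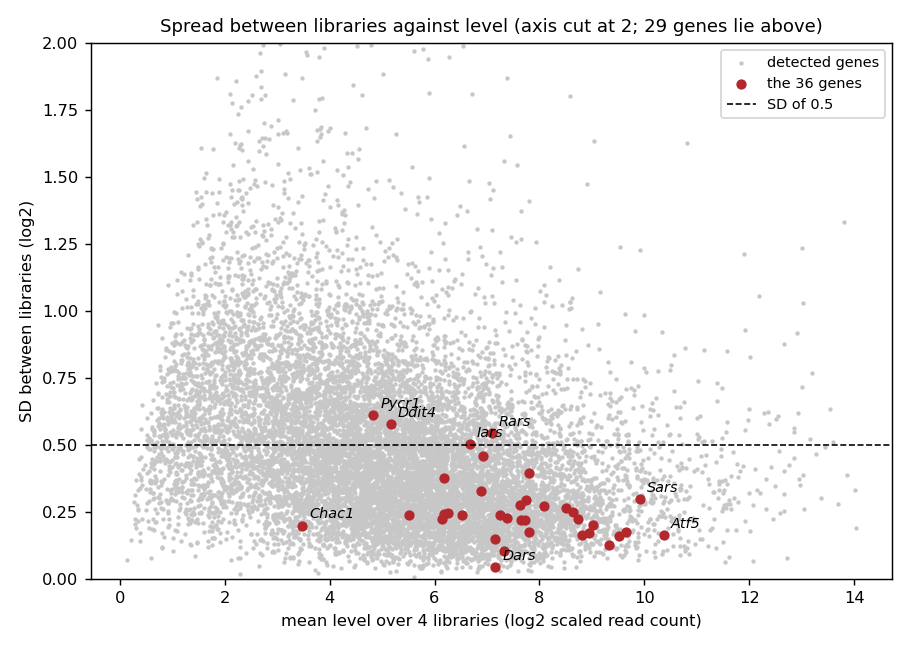
SD between the 4 libraries (vertical axis, log2) against mean level (horizontal axis, log2 scaled read count) for 12306 detected genes (grey) and the 36 genes (red), with the threshold of 0.5 dashed. The vertical axis ends at 2, above which 29 detected genes lie. Pycr1, Ddit4, Rars and Iars lie above the threshold.

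The libraries did not move all 36 genes alike. As deposited, the mean deviation of a gene from its own mean was 0.08, 0.14, -0.15 and -0.08 in libraries 1 to 4, with the same signs as the 0.30, 0.10, -0.28 and -0.11 of all detected genes. After median-ratio scaling the values of the 36 genes were -0.22, 0.05, 0.14 and 0.03, so the direction in libraries 1, 3 and 4 turned. Library 2 held the highest value of 16 genes (44.4%, against 23.6% of detected genes), library 1 of 11 (30.6%, against 53.6%) and library 4 of 1, Atf4 (2.78%, against 10.8%). Library 3 held the lowest value of 22 genes (61.1%, against 52.9% of detected genes) and the highest of 8 (22.2%, against 12%). Those 8 were Cars, Sars, Yars, Psph, Mthfd2, Atf5, Trib3 and Chac1. Because median-ratio scaling raises library 3 most, all 8 had to stay highest there. After median-ratio scaling library 3 held the lowest value of 4 genes (11.1%, against 28.5% of detected genes) and the highest of 17 (47.2%, against 30.3%). Library 1 held the lowest value of 7 genes (19.4%, against 16.3%), Cars, Sars, Yars, Psph, Atf5, Ddit3 and Trib3. Because the scaling lowers library 1 most, these 7 had to stay lowest there. After median-ratio scaling library 1 held the lowest value of 24 genes (66.7%, against 33.6%) and the highest of 2 (5.56%, against 32.1%). Cars, the cysteinyl enzyme, read 8.59, 8.90, 8.97 and 8.76, and Yars, the tyrosyl enzyme, 8.43, 8.80, 8.97 and 8.71. Library 3 also had the lowest depth and the largest mitochondrial share, whose part in this pattern was not tested.

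**Figure D5:**
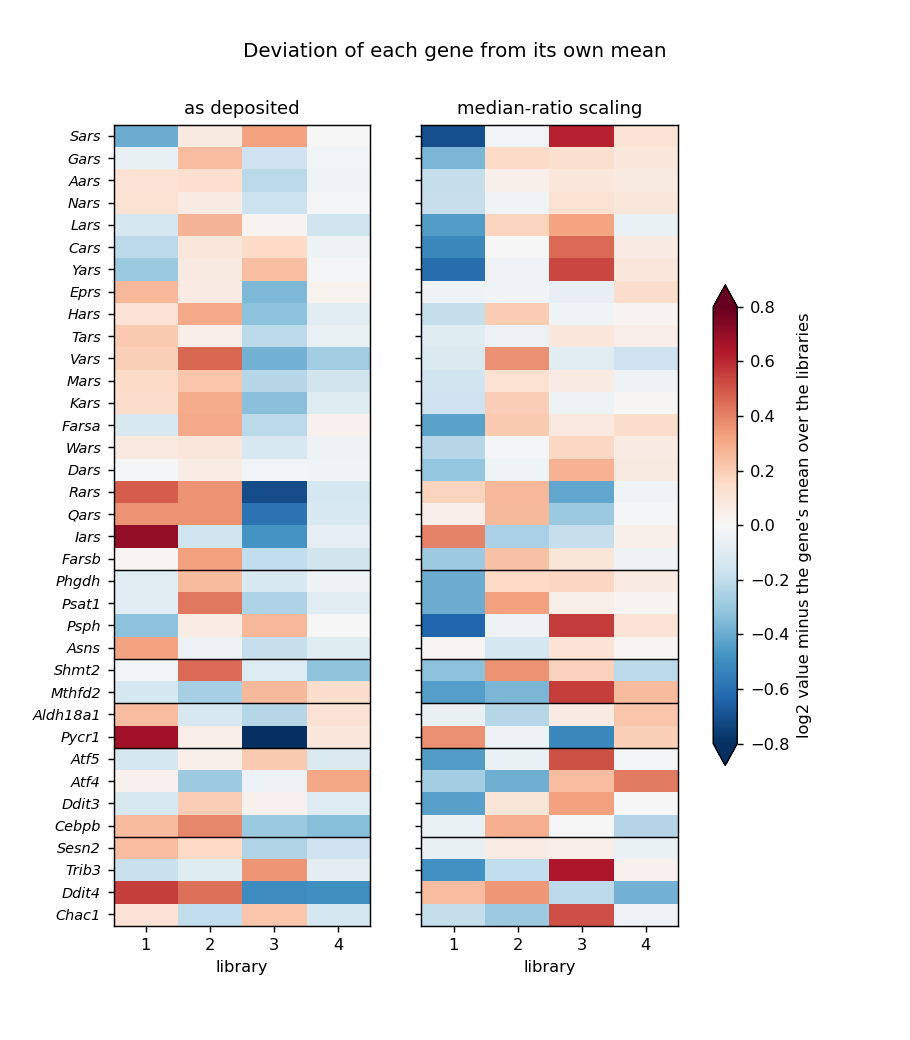
Deviation of each of the 36 genes (rows, grouped by role) from its own mean over libraries 1 to 4 (columns), as deposited on the left and after median-ratio scaling on the right, in log2 units (colour, red above and blue below the mean). Sars, Cars and Yars run from blue in library 1 to red in library 3 in both panels, and Pycr1 and Rars the other way.

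Companion genes of the same pathways gave a backdrop. Among 14 genes of the eIF2 kinases and their partners, 14 were detected and 5 variable, led by Gcn1l1 (8.69 ± 0.05), the activator of the amino acid sensor kinase GCN2, and by Eif2b5 (8.53 ± 0.22) and Eif2b2 (8.30 ± 0.44), subunits of the exchange factor for eIF2. Of 10 amino acid transporter genes of the ATF4 programme, 9 were detected and 4 variable, with Slc3a2 (7.76 ± 0.10), the heavy chain of several exchangers, highest, followed by Slc38a2 (6.84 ± 0.72) and Slc1a4 (6.74 ± 0.25). Slc7a3 had 27, 21, 0 and 16 reads. Of 16 further ATF4 targets, 15 were detected and 6 variable, with Nupr1 (8.30 ± 0.47), Vldlr (6.62 ± 1.37) and Mthfd1l (6.58 ± 0.19) highest. Vldlr, a lipoprotein receptor gene, read 7.03, 4.60, 7.23 and 7.63, and library 2 stood below the others. Fgf21, a secreted stress hormone gene, had no reads in any library, which allows up to 3 reads in each.

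All 10 other folate and proline genes were detected and 5 were variable, with Oat (9.04 ± 0.15), which links ornithine to proline synthesis, and Mthfd1 (6.81 ± 0.60) among the highest. The mitochondrial synthetases had 5 of 17 genes variable, and Lars2 (11.89 ± 1.21), Tars2 (6.32 ± 0.42) and Iars2 (6.28 ± 0.57) were highest by reads. Genes of the ATF6 and XBP1 branches of endoplasmic reticulum stress were detected in 14 of 14 cases and variable in 8, with the chaperone genes Calr (12.11 ± 0.41), Hsp90b1 (11.03 ± 0.74) and Hspa5 (10.44 ± 0.37) highest. These shares compare with 40.5% variable among all detected genes and 4 of 36 among the genes described above. The difference between the lists was not tested.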

How the data were processed

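Per the labels' protocols, total RNA of integrity number 7.8 to 9 was made into strand-preserving poly(A) libraries. The submitters' processing notes name Trim Galore, cutadapt and TopHat with build GRCm38. How reads were counted, with which annotation and strand setting, was not given in the sources used here. The authors deposited log2 values, 1 column per library, not divided by gene length. From the values, each is a read count multiplied by a factor of the library, genes without reads standing at 0.9 read, and 99.7% to 99.8% of the recovered counts were whole to within 0.05. What was counted as a read is unknown, and reads are not independent molecules, so counting errors are lower bounds.

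The members and lists were chosen with earlier results of these data known. Exon lengths (union of exons, GENCODE M21) were matched for 36 of 36 genes, and for 87.0% of all genes. Gene pairs (32, fixed list) were compared within libraries with the exact sign-flip permutation test (two-sided) and Benjamini-Hochberg adjustment. Named were all members, the genes of the pairs, and of each companion list the 3 highest and any undetected gene. Alternatives were other thresholds, median-ratio size factors, summaries and lengths, and leaving out each library. SD calls and the sign-flip test were tested on simulated data. Promoter windows came from RefSeq; Cars, Hars, Lars, Nars, Rars, Vars and Wars had none matched. Computation used Python 3.11.15, numpy 2.4.6, pandas 2.3.3 and matplotlib 3.10.9. A few items are not reported here.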

Additional observations from a re-analysis of the deposited data

Results flagged for a closer look

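The difference between Hars, the cytosolic histidyl-tRNA synthetase gene, and its mitochondrial neighbour Hars2 stood apart in library 1. It was 2.78 per kilobase (log2) there, against 3.03, 3.05 and 3.02 in libraries 2 to 4, and the gap of library 1 to the nearest other value took 0.874 of the whole range which is above Dixon's critical value for 4 samples. Of 68 sets of 4 values examined, this was the single one past that value (1.47%), and chance alone passes about 1 in 20. The deposited positions of the 2 genes share 198 bases on opposite strands, and whether reads there affected the difference was not tested.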

How the results depend on the processing

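The count of 36 detected genes was the same under each detection threshold and without each library. The count of 4 variable genes was 0 with an SD above 1 (5.80% of detected genes), 1 with median-ratio size factors, and 1 to 5 when a library was left out, lowest without library 3. With the size factors the mean deviation of the 36 genes became -0.22 in library 1, 0.14 in library 3 and 0.032 in library 4, reversing its sign in each. Of the 32 gene pairs, 29 had 1 sign in every library without division by length (Iars with Iars2 and Trib3 with Trib1 lost it, Farsa with Farsb gained it), 30 with the longest transcript, and 30 or 31 without a library. Mthfd2 minus Mthfd1 turned to 0.0015 with the longest transcript, and Trib3 minus Trib1 to -0.38 without division by length. No other pair changed direction under those settings or without any library. Narrowing the promoter motif, an alternative added after the data were seen, gave 6 genes in place of 9. No paired analysis was possible because the labels give 1 group. The p-values are bounded by 4 libraries at 0.125.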
